A study of Mus musculus with 12 samples.

Results

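The genes described here encode the cytosolic factors of translation initiation and elongation in mouse, chosen by symbol: every protein-coding gene whose symbol starts with Eif1 to Eif6, Eef1 or Eef2. The annotation (GENCODE vM21, genome GRCm38) holds 68 such genes, and 65 of them are named in at least 1 of 12 RNA bisulfite sequencing libraries, among 15487 genes named in all. A total of 62 were listed in every library, and 60 had enough cytosines to be tested, among 9451 genes tested. The 5 listed but untested genes were Eef1akmt4, Eif3j2, Eif4e3, Eif4ebp3 and Eif5a2, and the 3 genes found in no list were Eif4e1b, Eef1akmt3 and Eef1a2.

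Translation starts when eIF4E binds the cap of an mRNA and the scaffold eIF4G brings the helicase eIF4A and, through the many-subunit eIF3, the small ribosomal subunit with the initiator tRNA carried by eIF2. eIF2B recharges eIF2 with GTP, eIF2 kinases block that step under stress, and the 4E-binding proteins keep eIF4E from the scaffold. Once the subunits have joined, eEF1A delivers aminoacyl-tRNAs, the eEF1B complex recharges eEF1A, and eEF2 moves the ribosome along the mRNA. Many mRNAs of this machinery, the elongation factors above all, start with a run of pyrimidines (a 5′ terminal oligopyrimidine, or TOP, tract) that lets growth signalling set their own translation.

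The cells were adult neural stem cells (NSCs) from the subventricular zone of wild type male C57BL/6 mice, 6 to 8 weeks old. All were grown in the same medium with B27, EGF and bFGF, and the groups differed in its folic acid: 1.5 μM (LF), 10 μM (MF) or 80 μM (HF) for 4 days. RNA was taken either from whole cells (total mRNA) or from the sucrose gradient fractions with more than 3 ribosomes per mRNA (polysome mRNA, written pLF, pMF and pHF), was selected for poly(A) and treated with bisulfite. For the fractions, cells were first treated with cycloheximide to hold ribosomes in place, then frozen and lysed. The methods do not say whether cells for total mRNA had these steps. If they did not, the fraction and these steps cannot be told apart here. Each of the 6 groups had 2 libraries, described as biological replicates with no statement of which animals they came from. The p-values of coverage thus measure the spread between these libraries. Those of Fisher's exact test on levels, with reads summed over replicates, carry no such spread.

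Bisulfite turns an unmethylated cytosine of RNA into uracil, read as T, while 5-methylcytosine (m5C) is still read as C. Each library is a list of cytosines with a coverage of at least 10 reads and at least 1 unconverted read, and summed coverage was between 1186213013 and 2857966129. A gene was read in 2 ways. Its relative coverage is the median coverage over its listed cytosines with a level under 0.05, divided by the same value of the median tested gene of that library, so a relative coverage of 1 is the median gene. Its levels are the share of unconverted reads at cytosines with a coverage of at least 20, and a cytosine was called where that share reached 10% on 6 or more unconverted reads. Relative coverage is a proxy of mRNA abundance read at the listed positions, and a change of the positions that are listed can move it as well as a change of the mRNA, so differences were also read, for the members that allowed it, at the cytosines listed in all 4 libraries of a comparison, a reading chosen after the data had been seen. In bulk RNA, fewer cells with an mRNA and less of it per cell cannot be told apart.

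The libraries labelled HF stood apart and went against their label. Each library was set against the published list of its own sites. Coverage matched within 10% at 8 of 93 and 5 of 88 sites for the libraries labelled HF, against 99.0% to 100% of sites for the other 10. Across tested genes, their relative coverage correlated with that of LF and MF at Spearman's rho of 0.70 to 0.74, while LF and MF libraries correlated with each other at 0.89 to 0.91. They are therefore named as labelled HF, and no difference from them is read as an effect of folic acid or of the polysome fraction alone. Of the NSC markers fixed for the check, 7 of 8 were listed in every group, with a summed relative coverage of 105 to 170. Vim alone stood at 72.8 to 110, so the sum mostly reads that gene. Fabp7 stood at 19.2 to 36.0 in LF and MF and at 10.2 and 10.8 in the libraries labelled HF. Hes5 went the other way, with 1.50 to 1.75 and 3.68 and 3.54. Positions of the remaining marker, Sox2, carry the name of the overlapping transcript. Markers of fibroblasts and mural cells summed to 14.6 to 17.9 in LF and MF, 18.1 to 29.7 in polysome mRNA and 32.4 to 32.6 in the libraries labelled HF, with Dcn listed in no group and Lum listed in the libraries labelled HF alone. Within that list, Tagln stood at 2.22 to 2.88 in LF and MF and 5.75 to 15.9 in polysome mRNA, while Col1a2 stood at 10.5 to 12.6 and 8.18 to 14.7. Acta2 stood at 0.861 to 1.41 in LF and MF and at 7.94 and 7.42 in the libraries labelled HF. Astrocyte markers summed to 4.30 to 5.13 in LF and MF, 2.58 to 2.81 in the libraries labelled HF and 1.58 to 4.55 in polysome mRNA. Endothelial markers were at 0 in LF, MF, pLF and pMF and at most 0.266 elsewhere. The part of these cells in the differences below was not tested. Among the polysome libraries, pHF replicate 2 stood apart, with the fewest listed cytosines (797260, against up to 2071190) and the highest median coverage per listed cytosine (920, against 335 to 605).

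A selection of called cytosines of these genes is shown first, because the levels below refer to them. Not all of them are among the highest in level. Each line gives the RNA strand from 5′ to 3′ (T for U), with the called cytosine in capitals and, for the first, all 12 called cytosines in capitals. The first lies in the 5′UTR of Eif4ebp2 on the minus strand at chr10:61452583-61452609, with its nearest called cytosine 42 bases before the start codon. The next 8, chosen to show the bases before the cytosine, were called in both libraries labelled HF and in no other group. The last 2 were called in pLF.
Eif4ebp2 5′UTR: cgccgCCgCCgCCgCCgCCgCCgccgc
Eef1a1 coding sequence, labelled HF: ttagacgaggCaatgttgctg
Eif6 coding sequence, labelled HF: tcagggggggCtggtgcaccc
Eif4g2 coding sequence, labelled HF: agatggggggCaagtttatga
Eif4b coding sequence, labelled HF: gtgtacagggCgcctccaatt
Eif3e coding sequence, labelled HF: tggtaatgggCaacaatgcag
Eif1ax coding sequence, labelled HF: attggtggggCtacgagatta
Eif2s3y coding sequence, labelled HF: ctgaatggggCagcagtgatg
Eef2kmt 3′UTR, labelled HF: cactagggggCactcaaaagc
Eif3e coding sequence, pLF: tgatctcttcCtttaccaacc
Eif4b 5′UTR, pLF: ttctctctccCtctcccaaca

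Translation factors were among the most covered mRNAs of these cells. In MF, 44 of the 60 tested members lay above the median tested gene, 25 lay in the top 10% of all tested genes, and the median member had a relative coverage of 3.15. Eef1a1 stood highest, with a relative coverage of 94.0 and 83.5 in the MF replicates, followed by the translocase gene Eef2 with 54.4 and 57.0. Eef1b2, Eef1d and Eef1g, which encode the subunits of eEF1B, followed at 23.9 ± 13.2, 17.9 ± 0.632 and 16.4 ± 0.495 (mean ± SD, n = 2). The replicates of Eef1b2 (33.3 and 14.6) overlapped those of both other subunits, so the order of these 3 genes is not set beyond their spread. Eif5a, whose product eases peptide bond formation and is the only protein known to carry hypusine, stood at 14.7 ± 1.77, and the eIF3 subunit genes Eif3f and Eif3h at 10.9 ± 0.603 and 9.65 ± 1.27. At the other end, the eIF2 kinase genes Eif2ak2 and Eif2ak4, the methyltransferase gene Eef1akmt2 and Eif3j1 stood at 0.469 ± 0.101, 0.382 ± 0.0142, 0.316 ± 0.194 and 0.272 ± 0.0545.

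For Eef1a1 these values are bounds. No position of any library had a coverage above 49682, and between 51.8% and 60.1% of the Eef1a1 cytosines in LF and MF lay above 40000, against 17.5% to 36.6% in the other libraries. For Eef2 the share above 40000 was 0% to 19.1%.

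**Figure D1:**
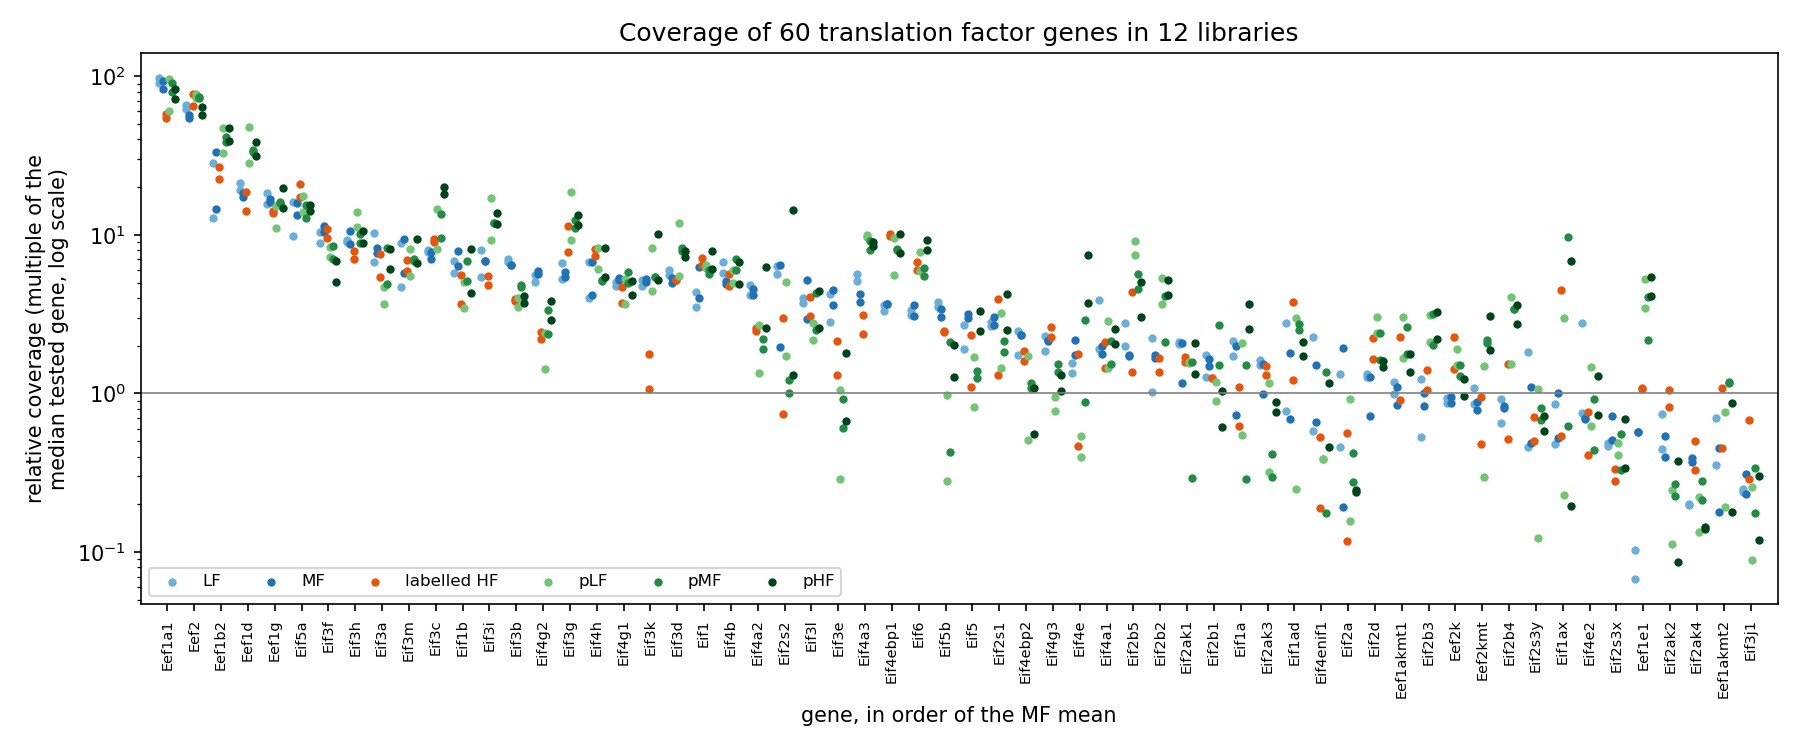
Relative coverage of the 60 tested translation factor genes (y axis, log scale, multiple of the median tested gene) in each of the 12 libraries, with genes on the x axis in order of their MF mean. Eef1a1 and Eef2 stand above all other members, the labelled HF points leave the LF and MF points at genes such as Eif4ebp1 and Eif6, and polysome points do so at Eef1e1 and Eif3e.

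The comparison of polysome with total mRNA asks which factor mRNAs hold a larger or smaller share of the coverage on heavy polysomes than in the cell. At LF, 14 of the 60 members passed the threshold (limma on 12 libraries, adjusted p under 0.05), 9 higher and 5 lower in pLF, against 13.4% of all tested genes (8.21% higher and 5.16% lower). At MF, 7 passed, 6 higher and 1 lower in pMF, against 12.5% of all genes (7.89% higher, 4.56% lower). Against the libraries labelled HF, 12 passed, 8 higher and 4 lower in pHF, against 14.0% of all genes (7.76% higher, 6.23% lower). The median log2 difference of the members was -0.30, -0.04 and 0.30, beside 0.08, 0.07 and 0.02 over all tested genes. In all, 22 members passed in at least 1 of the 3 comparisons, a count not made over all genes. Eef1d, Eef1e1 and Eif4a3 passed in all 3, each higher in polysome mRNA. The third comparison rests on the libraries labelled HF, which did not match their published list. With quantile normalization in place of median centring, the calls split into 1 higher and 10 lower at LF, 5 and 6 at MF, and 5 and 5 at labelled HF. The direction of the members' calls thus hangs on the scaling. No share of all genes is set beside these counts, so no balance of directions is read as particular to the members.

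Among the elongation factors, Eef1d, the gene of the eEF1B subunit delta, was higher in polysome mRNA. The LF replicates had a relative coverage of 21.1 and 19.2, the MF replicates 18.3 and 17.4 and those labelled HF 18.7 and 14.2. The pLF replicates reached 28.5 and 47.6, the pMF replicates 33.2 and 34.5 and the pHF replicates 38.3 and 31.5. All 6 polysome values lay above all 6 values of the libraries labelled as total mRNA, those labelled HF included. The log2 differences were 0.87, 0.92 and 1.09 (SE 0.242, limma adjusted p = 0.0423, 0.0357 and 0.0179), and 0.53, 0.59 and 0.78 at the cytosines listed in all 4 libraries, all past the threshold there. With quantile normalization Eef1d did not pass at LF (0.57). At the common cytosines 58.6%, 74.3% and 71.5% of all genes passed at LF, MF and labelled HF. A pass there is the usual outcome and is not read as support, here or below.

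The other elongation factors did not pass. Eef1b2, of the same complex, differed by 1.04, 0.86 and 0.81 on the log2 scale, but its LF values were 28.4 and 12.8 and its MF values 33.3 and 14.6, a spread between replicates as wide as the difference. At the common cytosines Eef1b2 differed by -0.24 at LF and -0.15 at MF. At labelled HF its coverage at 114 such cytosines, before centring, was 19787.5 and 26042 in pHF against 16496.5 and 14510. Since the sign turned at LF and MF, no direction is given for Eef1b2. Eef2 differed by 0.24 at LF (adjusted p = 0.257), 0.40 at MF (0.0748) and -0.24 at labelled HF (0.257). Eef1g differed by -0.38, -0.04 and 0.29, none past the threshold, and no difference is read for Eef1a1, whose values are bounds.

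Eef1e1, whose product is a small scaffold protein of the multi-tRNA synthetase complex, had the largest difference of any member. The LF replicates had a relative coverage of 0.0671 and 0.102, the MF replicates 0.571 and 0.567, and those labelled HF 1.07 and 1.07, while the 6 polysome libraries lay between 2.18 and 5.44. The log2 difference was 5.68 at LF (SE 0.412, adjusted p = 0.00017), 2.39 at MF (adjusted p = 0.00674) and 2.14 at labelled HF (adjusted p = 0.00997). The LF medians were 28 reads over 46 cytosines and 47 reads over 107 cytosines, against 1364 and 1073 reads over 59 and 133 cytosines in pLF, and the libraries labelled HF listed only 13 and 8 cytosines. At the 36 cytosines common to the MF and pMF libraries, coverage was 300 and 385 in MF and 693.5 and 641.5 in pMF, a log2 difference of 1.63 after centring. Too few cytosines were common to the libraries at LF and at labelled HF to read it there. With mean in place of median coverage the difference at LF was 3.44 and passed.

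The genes of eIF2B, the exchange factor that reloads eIF2 with GTP, gave 5 calls in the 3 polysome comparisons, all higher in polysome mRNA, out of 5 genes tested in each, beside 8.21%, 7.89% and 7.76% of all genes called higher. With quantile normalization 4 of these did not pass (Eif2b2, Eif2b3 and Eif2b5 at LF, with differences of 1.30, 1.52 and 1.42, and Eif2b2 at labelled HF, with 1.40). Eif2b5, of the catalytic subunit epsilon, stood at 2.79 and 1.98 in LF and at 9.08 and 7.48 in pLF, a log2 difference of 1.81 (SE 0.483, adjusted p = 0.0363), and 1.50 at the common cytosines. At MF it stood at 1.74 and 1.73 against 5.67 and 4.56 in pMF. The difference of 1.55 did not pass with all listed cytosines. At the common ones, where 74.3% of all genes passed, it was 1.37 and passed. Its replicates did not overlap between the fractions at either concentration.

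Eif2b3 was higher in pLF by 1.66, Eif2b2 higher in pLF by 1.56 and in pHF by 1.62, and Eif2b4 higher in pMF by 2.05 (adjusted p = 0.0408, 0.0425, 0.0356 and 0.0392). Eif2b4 stood at 0.804 and 0.829 in MF and at 3.40 and 3.39 in pMF. Its difference at the common cytosines was 0.87, and at labelled HF 1.82 over all listed cytosines, without passing, against -0.99, past the threshold, at the common ones. Eif2b2 had no stable direction at MF, with 0.79 over all listed cytosines and -0.95, past the threshold, at the common ones. Eif2b1 passed in no comparison.

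Of the remaining factors of start codon selection and tRNA delivery, 1 passed in a polysome comparison. Eif5b, whose GTPase joins the subunits, stood at 3.76 and 3.51 in LF and at 0.281 and 0.971 in pLF, a log2 difference of -2.80 (SE 0.720, adjusted p = 0.0318). At MF the difference of -1.75 did not pass over all listed cytosines, and -1.32 passed at the common ones. Of the 18 tested members of this role, 3 were higher and 1 lower at LF, 1 higher at MF and 1 higher at labelled HF, beside 8.21% higher and 5.16% lower of all genes at LF, 7.89% higher at MF and 7.76% higher at labelled HF. Eif2s1, of the eIF2 subunit alpha that stress kinases phosphorylate, differed by -0.35, -0.54 and 0.52 with none past the threshold. At the common cytosines Eif2s1 differed by 0.47, 0.38 and -0.95, the latter pair past the threshold, so no direction is given for it.

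Among the 13 tested subunits of eIF3, the scaffold on the small ribosomal subunit, 1 was higher and 2 were lower at LF, 1 was lower at MF, and 3 were higher and 1 lower at labelled HF, beside 8.21% higher and 5.16% lower of all genes at LF, 4.56% lower at MF and 7.76% higher and 6.23% lower at labelled HF. Of these subunits, Eif3e had the lowest difference at LF and MF. Its relative coverage was 2.83 and 4.26 in LF and 3.59 and 4.46 in MF, against 0.290 and 1.05 in pLF and 0.604 and 0.918 in pMF, with no overlap. The log2 difference was -2.65 at LF (SE 0.643, adjusted p = 0.0257) and -2.43 at MF (adjusted p = 0.0372). At 36 common cytosines, coverage was 1588.5 and 2135.5 in LF and 72.5 and 217 in pLF, a log2 difference of -3.60 after centring, and at 32 common cytosines it was -1.61 at MF. At labelled HF the difference was -0.61 and did not pass.

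Other subunits passed in either direction. Eif3g was higher in pLF by 1.15 (SE 0.323, adjusted p = 0.0442), with 5.26 and 6.69 in LF and 9.27 and 18.6 in pLF, and it was the last member inside the threshold at LF and did not pass with quantile normalization (0.63). Eif3i, just outside at LF (0.92, adjusted p = 0.0681), was higher in pHF by 1.30 (adjusted p = 0.0193). Eif3c and Eif3k were higher in pHF by 1.05 and 2.40, Eif3b was lower in pLF by -0.88, and Eif3f was lower in pHF by -0.81. Eif3c lost its call under 1 of the 11 settings run besides leaving out a library. It also lost the call in most fits with 1 library left out, and its lowest value over all settings was 0.69. Eif3f differed by -0.01 at the common cytosines of pHF and the libraries labelled HF, so its call hangs on the positions read, and Eif3b turned to 0.11 at the cytosines listed in all 12 libraries.

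Grouped with the cap-binding factors by symbol, Eif4a3 was called higher in polysome mRNA in all 3 comparisons. Its product is the helicase of the exon junction complex, not of the cap complex. The LF replicates stood at 5.09 and 5.63, the MF replicates at 3.75 and 4.22 and those labelled HF at 3.11 and 2.38, against 7.99 to 9.99 over the 6 polysome libraries. The log2 differences were 0.88, 1.10 and 1.69 (SE 0.219, adjusted p = 0.0280, 0.0125 and 0.00219). Read at the common cytosines, the difference was 0.16 at LF (adjusted p = 0.350) and 0.11 at MF (adjusted p = 0.331), and only that of 1.72 at labelled HF stayed past the threshold. At LF it was -0.18 at the cytosines listed in all 12 libraries.

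Among the scaffold genes, Eif4g2, of the eIF4G relative DAP5 that works without eIF4E, stood at 5.01 and 5.61 in LF and at 1.42 and 2.41 in pLF, a log2 difference of -1.52 (SE 0.316, adjusted p = 0.0138). At 410 common cytosines coverage was 2170.5 and 2727.5 in LF and 378.5 and 830.5 in pLF, a difference of -1.84 after centring. At MF it was the nearest member outside the threshold, with -1.04 (adjusted p = 0.0593), and -1.29 passed at the common cytosines. At labelled HF it went the other way, with 0.53, which did not pass, and 0.67, which passed, at the common cytosines.

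Eif4g3 was lower in pLF by -1.27 and in pHF by -1.07 (adjusted p = 0.0231 and 0.0419). Eif4g1, of the main scaffold, stood between 3.65 and 5.86 in all 12 libraries and differed by -0.16, 0.03 and 0.14, none past the threshold, while at the common cytosines it was lower by -0.71, -0.66 and -0.69. Eif4a1 differed by -0.41, -0.05 and 0.38 with none past the threshold, and by -1.49, -0.69 and 1.13, all past it, at the common cytosines. Eif4e, the cap-binding protein gene, was called higher in pHF by 2.53 (adjusted p = 0.0379) from 0.468 and 1.78 in the libraries labelled HF to 3.72 and above in pHF, yet the difference at the common cytosines was -0.08, and -0.43 at those listed in all 12 libraries, so no direction is given for it.

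**Figure D2:**
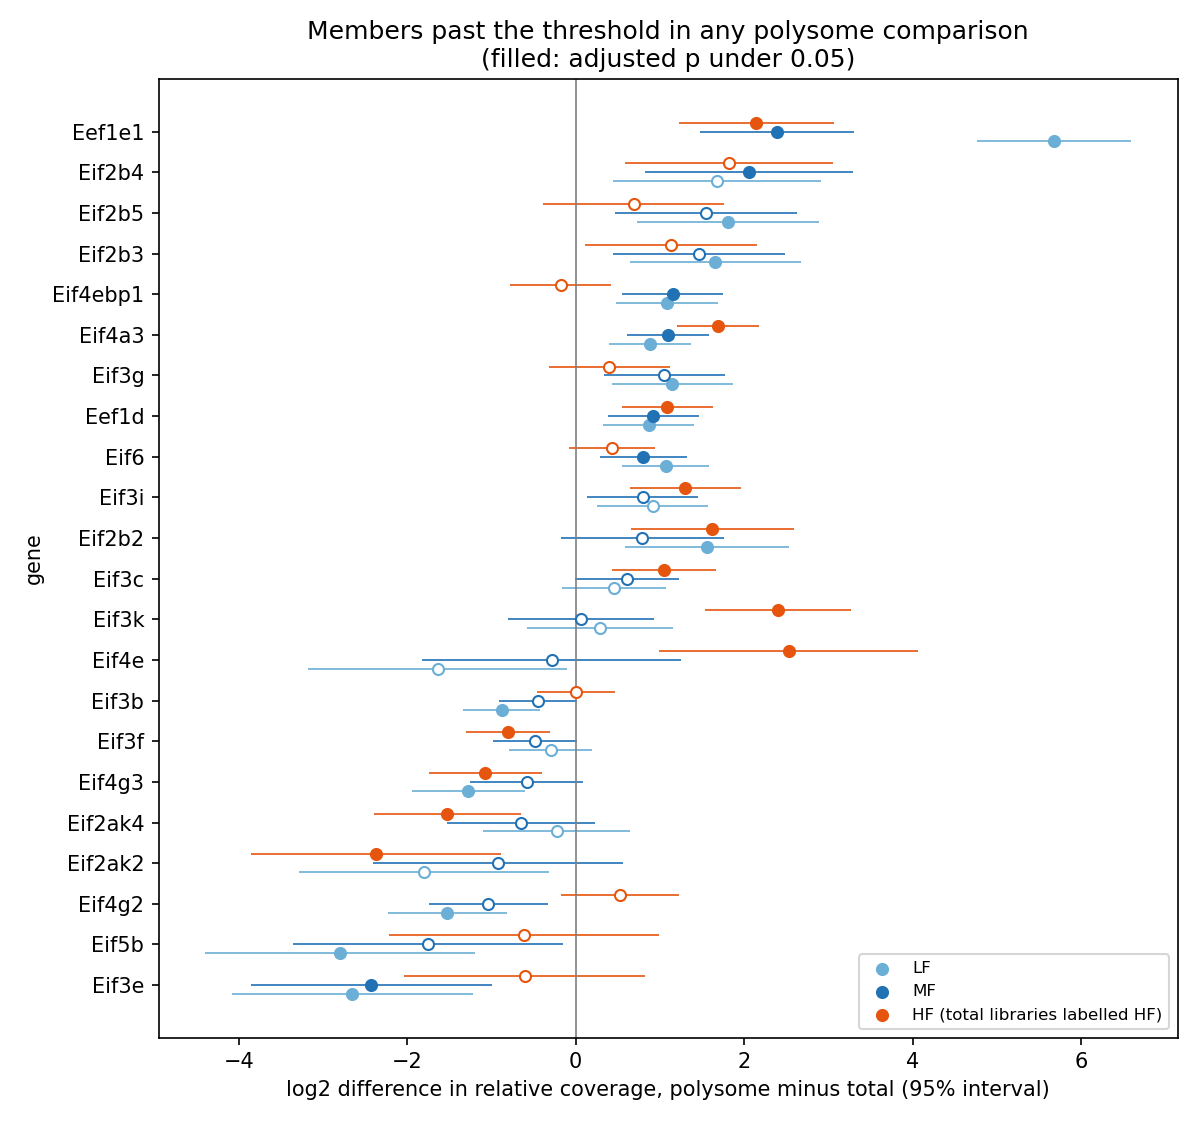
Log2 difference in relative coverage, polysome minus total (x axis, points with 95% intervals from limma), at LF, MF and labelled HF for the 22 members past the threshold in at least 1 comparison (y axis); filled points passed. Eef1e1 lies farthest right at LF with 5.68, Eif5b farthest left with -2.80, and Eef1d, Eef1e1 and Eif4a3 are filled in all 3.

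Among the inhibitors, the 4E-binding protein genes differed. Eif4ebp1, of a protein that competes with the scaffold for eIF4E, stood at 3.32 and 3.61 in LF and 3.65 and 3.66 in MF, against 5.59 and 9.62 in pLF and 8.07 and 8.17 in pMF. The log2 differences were 1.08 (SE 0.271, adjusted p = 0.0290) and 1.15 (adjusted p = 0.0242), and they were 1.87 and 2.14 at the common cytosines. With quantile normalization the call at LF was lost (0.64). At 38 such cytosines coverage was 1905.5 and 2236.5 in MF and 5249.5 and 6269.5 in pMF. At labelled HF the difference was -0.18, from total values of 9.83 and 10.1, and did not pass, while at the common cytosines it was 0.88 and passed, so its size and sign there hang on the positions read.

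Its paralogue Eif4ebp2 did not pass over all listed cytosines. It stood at 2.33 and 2.33 in MF and 1.17 and 1.08 in pMF, with differences of -1.15, -1.06 and -1.14 in the 3 comparisons; at the common cytosines those at MF (-1.20) and labelled HF (-1.84) did. The eIF2 kinase genes had differences of -0.40, -1.80, -1.37 and -0.23 at LF for Eif2ak1, Eif2ak2, Eif2ak3 and Eif2ak4, none past the threshold. Eif2ak2, of the double-stranded RNA sensor PKR, and Eif2ak4, of the amino acid sensor GCN2, were lower in pHF than in the libraries labelled HF by -2.37 and -1.52 (adjusted p = 0.0421 and 0.0315). Both are among the least covered members, and Eif2ak2 stood at 0.373 and 0.0865 in pHF. In the library with the fewest, 3 cytosines stood for Eif2ak2 and 2 for Eif2ak4. Both calls were lost in most fits with 1 library left out.

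Eif6, whose product keeps the large ribosomal subunit from joining too early, was higher in polysome mRNA at LF and MF. It stood at 3.12 and 3.36 in LF and 3.60 and 3.07 in MF, against 5.94 and 7.75 in pLF and 5.47 and 6.17 in pMF, with no overlap. The log2 differences were 1.07 (SE 0.230, adjusted p = 0.0156) and 0.81 (adjusted p = 0.0475), the latter the last inside the threshold, and 1.25 and 1.14 at the common cytosines. With quantile normalization neither passed (0.66 and 0.47). At labelled HF the difference of 0.43 did not pass, and at the common cytosines it was -0.42, past the threshold in the other direction. Eif5a, the other tested member of this role, differed by 0.32, -0.05 and -0.36, none past the threshold, and by -0.59, -1.01 and -0.96, all past it, at the common cytosines.

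Reading each gene at common cytosines left fewer members and passed far more of all genes. At LF, 24 of 41 members passed, 7 higher and 17 lower, against 58.6% of all genes so read (27.5% higher and 31.2% lower). At MF it was 32 of 44, 12 higher and 20 lower, against 74.3% (34.5% and 39.8%), and at labelled HF 31 of 44, 19 higher and 12 lower, against 71.5% (36.9% and 34.6%). These fits rest on the 4 libraries compared alone. Of the members called over all listed cytosines, 10 of 14, 7 of 7 and 9 of 12 could be read this way, and 9, 6 and 7 of these passed in the same direction. Members that passed as lower there at both LF and MF without having passed before included Eif4a2 (-1.85 and -2.16), Eif3a (-1.38 and -0.78), Eif4g1 and Eif5a.

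**Figure D3:**
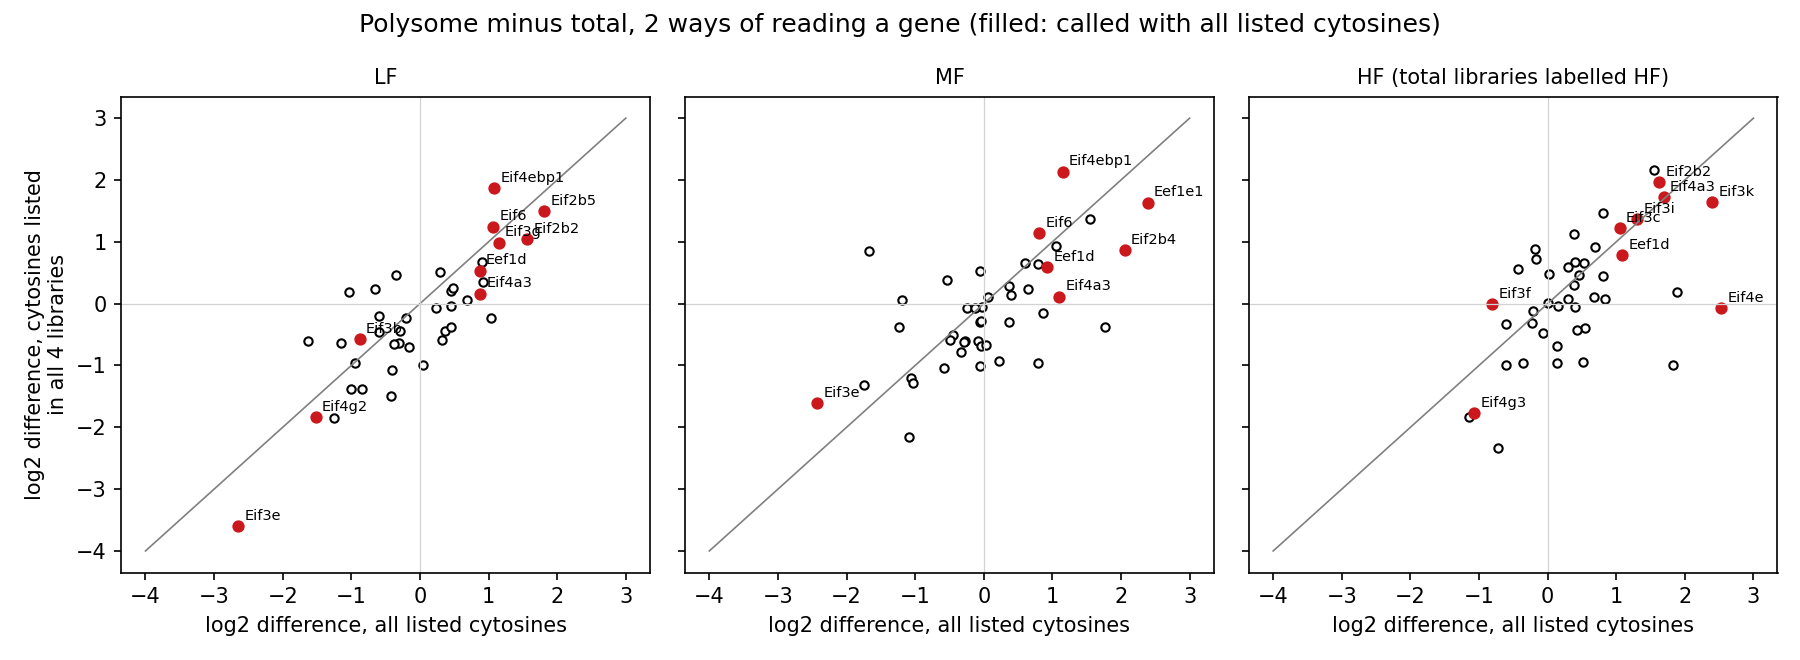
Polysome minus total log2 difference of each member read over all listed cytosines (x axis) and over the cytosines listed in all 4 libraries (y axis), 1 panel each for LF, MF and labelled HF; filled points were called on the x axis. Eif3e, Eif4g2, Eif4ebp1 and Eif6 keep their side of 0 at LF and MF, while Eif4a3 falls to 0.16 and 0.11 and Eif4e at labelled HF to -0.08.

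The calls depend on single libraries. Without 1 library, its group is taken to vary like the other groups, and the calls that were lost kept their direction. The counts that follow are of members alone, with no share of all genes beside them. At LF, leaving out LF replicate 1 or 2 left 2 members called, and leaving out pLF replicate 2 left 7; at MF, leaving out MF replicate 1 or pMF replicate 1 left 0; at labelled HF, leaving out HF replicate 1 or pHF replicate 1 left 4, and leaving out pHF replicate 2, which stood apart, left 5. Of 37 calls of a member in a comparison, 3 passed with every library left out in turn and under every other setting that was run for it: Eef1e1 at LF, and Eif3k and Eif4a3 at labelled HF. Their sizes moved: over the settings run, Eef1e1 at LF ranged from 3.44 to 5.99, Eif3k from 1.48 to 2.95 and Eif4a3 from 0.47 to 2.24. Eef1e1 at LF had too few common cytosines to be read there. Eif3k and Eif4a3 passed here against the libraries labelled HF, and Eif4a3 did not pass at the common cytosines at LF or MF. None of the 3 is thus read as a difference of the fraction that holds under every reading.

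Shorter mRNAs lay to the polysome side, in the members as in other genes. Spearman's rho between the length of the longest coding transcript and the polysome minus total difference was -0.40, -0.39 and -0.25 over the 60 members and -0.36, -0.32 and -0.32 over 9106 genes. At the common cytosines it was -0.29, -0.23 and -0.39 over 41, 44 and 44 members. This describes points that share libraries and positions, and no test was made.

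Of the 9 members on a textbook list of TOP mRNAs (Eef1a1, Eef1b2, Eef1d, Eef1g, Eef2, Eif3e, Eif3f, Eif3h and Eif4b), 1 was higher and 1 lower in each polysome comparison, where 7.76% to 8.21% of all tested genes were higher and 4.56% to 6.23% lower. The higher gene was Eef1d each time, and the lower was Eif3e at LF and MF and Eif3f at labelled HF. Its median difference was -0.20, -0.02 and 0.29, beside 0.08, 0.07 and 0.02 over all tested genes. The cytosolic ribosomal proteins, whose mRNAs carry the same tract, had 14 of 77 higher and 8 lower at LF, 15 and 8 at MF and 23 and 4 at labelled HF, with medians of 0.30, 0.31 and 0.58.

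Other genes of the pathway were counted by lists, beside the shares of all tested genes that passed (8.21% higher and 5.16% lower at LF, 7.89% and 4.56% at MF, 7.76% and 6.23% at labelled HF). Of 12 genes of poly(A) binding, reinitiation and other initiation steps, 4 were lower at LF, 2 were lower and 1 higher at MF, and 1 was lower at labelled HF (Mcts1, -1.49). Pabpc1, of the main poly(A)-binding protein, was lower at LF and MF by -2.60 and -2.34 (adjusted p = 0.000878 and 0.00126), and the helicase gene Ddx3x by -2.29 and -2.77 (adjusted p = 0.0312 and 0.0164). Pabpc1 did not pass at labelled HF, and its change from MF to labelled HF passed (2.16, adjusted p = 0.0376). Paip2, of an inhibitor of that protein, was higher in pMF by 1.48. Of 6 genes of termination and recycling, 1 was higher and 1 lower at LF (Pelo, of the ribosome rescue factor, higher by 1.39), 1 was higher at MF and none passed at labelled HF, and of 8 tested mitochondrial factors none passed at LF, 1 was higher at MF (Mtif3, 1.46) and 2 at labelled HF (Gfm1, 1.74, and Gfm2, 1.37).

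Between folic acid concentrations, no member passed in total mRNA at LF against MF, where 0.00% of all genes were called. Without adjustment, 2 members and 224 of all genes lay under a p of 0.05, and edgeR also called 0 members. The largest difference was again that of Eef1e1, with -2.78 (adjusted p = 0.116). Of the best known factors, Eef2 differed by 0.20, with 65.9 and 62.2 in LF above 54.4 and 57.0 in MF, and Eif4g1 by -0.11, with 4.74 and 5.02 in LF below 5.20 and 5.33 in MF; the replicates of both did not overlap, and neither passed. Eif5a differed by -0.21 and Eif6 by -0.04, with overlapping replicates. With 47 members at common cytosines, 0 passed as well.

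In polysome mRNA, no member passed at pLF against pMF (0.0952% of all genes called, 0.0635% higher and 0.0317% lower) or at pHF against pMF (0.0106%). edgeR called 0 in each. Eif4e was nearest at pLF against pMF, with -1.79 (adjusted p = 0.542), and Eif2b1 at pHF against pMF, with -1.34 (adjusted p = 0.448). The interaction, the change of the polysome minus total difference from MF to LF, passed for no member (0.0106% of all genes), and edgeR called 0. A simulation on these 9451 genes for pMF against MF changed 200 genes and left the groups otherwise alike. There the test recovered 0% of changes of 1 on the log2 scale, 37.5% of changes of 2 and 76% of changes of 3. In the data, 12.5% of genes passed in that comparison, and Eif6 passed with 0.81, so these shares are not its power. The other comparisons, those between folic acid concentrations included, were not simulated. With 2 libraries against 2, an exact permutation test of a single value cannot go below p = 0.333.

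The libraries labelled HF differed from MF at 4 members, 2 higher and 2 lower, against 6.39% of all genes (3.79% higher and 2.60% lower). Eif4ebp1 stood at 9.83 and 10.1 against 3.65 and 3.66 in MF, a log2 difference of 1.44 (SE 0.271, adjusted p = 0.0170). Eif6 was higher by 0.94 (adjusted p = 0.0413), with 6.02 and 6.74. Eif3k was lower by -1.92 (adjusted p = 0.0230), with 1.77 and 1.07 against 5.29 and 5.08, and Eif4g2 lower by -1.31 (adjusted p = 0.0388), with 2.20 and 2.45 against 5.90 and 5.63.

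All 4 were past the threshold in the same direction at common cytosines (1.33, 1.12, -0.68 and -1.75). At these cytosines, 41 of 47 members passed, 8 higher and 33 lower, against 80.5% of all genes (34.5% and 46.0%). With mean coverage over all listed cytosines the difference of Eif4g2 was 0.046 and did not pass. The interaction between MF and labelled HF passed for no member (1.07% of all genes, 0.444% higher and 0.624% lower), and edgeR called 0. Without MF replicate 1 or 2 or without HF replicate 1 or 2, 0 members passed against MF. The summed fibroblast and mural cell markers were 32.4 to 32.6 in these libraries and 14.6 to 16.6 in MF, and their part in the differences was not tested.

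Few listed cytosines of these genes were called. In LF, 14 of 11101 cytosines listed in both replicates were called in both (0.126%), against 0.231% over all genes; in the other groups 11 to 18 member cytosines were called, or 0.107% to 0.168% of those listed, and in each the share over all genes was higher, at 0.210% or more. These shares were not adjusted for coverage, which is high in these genes and sets which cytosines are listed, so no lower level is read from them. In all, 34 member cytosines were called in both replicates of at least 1 group. The lists precede the filters against reads with several unconverted cytosines, so a level here is not a measure of m5C alone.

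The repeat in the Eif4ebp2 5′UTR held 12 of the 34. They span 17 bases, chr10:61452588-61452604, and each is a C of the CCG units shown in capitals above. The mean level over the 12 was 21.0% and 23.4% for the LF replicates and 24.6% and 24.3% for the MF replicates. On polysomes it was 20.0% and 18.1% (pLF), 24.8% and 17.3% (pMF) and 24.3% and 22.1% (pHF). In the libraries labelled HF it was 2.29% and 2.12%, and at each of the 12 cytosines these 2 libraries lay below the other 10. Median coverage of the repeat was 4647 and 3357.5 in the libraries labelled HF, against 781.5 to 1181 in LF and MF and 222.5 to 589 in polysome mRNA.

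Levels were highest in the middle of the repeat. The cytosine at 61452595 had 27.4% and 32.1% in LF (1160 and 1174 reads) and 33.8% and 32.2% in MF, and that at 61452604, at the 5′ end, 11.4% and 11.7% in LF. Neighbouring cytosines share reads, so the 12 are not independent measurements.

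**Figure D4:**
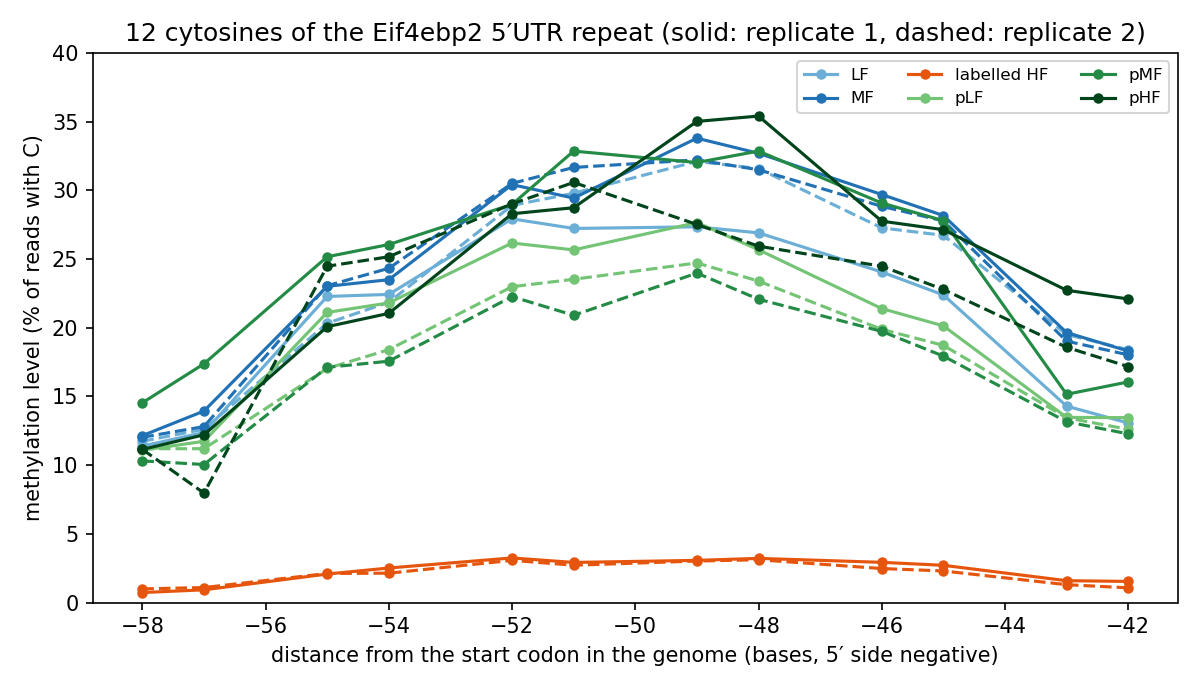
Methylation level (y axis, % of reads with C) of the 12 called cytosines of the Eif4ebp2 5′UTR repeat against their distance from the start codon in bases (x axis), a line per library. Lines of 10 libraries peak in the middle, up to 35.4% in pHF, and the lines of the libraries labelled HF stay at or below 3.25%.

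Levels were compared by Fisher's exact test, with the reads of both replicates summed. At LF, 8 of 16 member cytosines passed (2 higher and 6 lower in pLF), against 65.0% of 480 tested cytosines of all genes, and 6 passed (2 higher and 4 lower) with the replicate number as a block. At MF, 1 of 14 passed, lower in pMF, against 53.6%. Over all genes, 290 of the 312 cytosines that passed at LF and 180 of the 216 at MF were higher in polysome mRNA. Of the Eif4ebp2 repeat, 4 cytosines were lower in pLF, by -3.46 to -4.98 percentage points (adjusted p = 0.0244 and 0.00406), and that at 61452589 was lower in pMF by -5.02 percentage points (adjusted p = 0.0203). The pLF replicates at that cytosine were 13.5% and 13.4% and the LF replicates 14.3% and 19.5%, and a test with an error term between replicates (limma on the log odds) passed none of the repeat at LF or MF.

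At labelled HF, 20 of 20 member cytosines passed (11 higher and 9 lower in pHF), against 65.3% of all tested cytosines, and against MF 18 of 19 passed (6 higher and 12 lower in the libraries labelled HF), against 94.3%. The 11 higher cytosines of the former and the 12 lower ones of the latter are those of the repeat. Those of the repeat entered by being called in pHF or MF and the others by being called in the libraries labelled HF, each through a group where they are high, so their passing is no result and the levels are a description. At 61452595 the pooled level was 3.05% in the libraries labelled HF, 32.9% in MF and 31.0% in pHF. LF against MF passed at 0 of 14 member cytosines, with 0.760% of all tested cytosines passing.

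A further 17 cytosines were called in both libraries labelled HF and in no other group. The base before the cytosine was G at all 17, against 26.4% of the 20365 background cytosines of the members. The 2 bases before were GG at 15 (88.2%, against 7.14%), the 3 bases before GGG at 10 (58.8%, against 1.57%), and the 4 bases before GGGG at 8 (47.1%, against 0.388%). Over the 2590 such cytosines of all genes the shares were 78.7%, 73.8%, 67.8% and 57.9%, so this setting is not particular to translation factors.

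High levels in the libraries labelled HF and low ones elsewhere follow from how these cytosines were chosen, and their values are given as a description. The Eef1a1 cytosine at chr9:78479338 had 11.9% and 10.1% in the libraries labelled HF, on 9617 and 9415 reads, and 0.133% to 0.378% in the other 10, on at least 20531 reads each. The Eif6 cytosine at chr2:155823260 had 24.9% and 24.2% against at most 0.445%, and that of Eif4g2 at chr7:111076714 had 14.1% and 10.5% against at most 0.519%. The Eif4b cytosine at chr15:102084203 had 13.7% and 12.2% (at most 0.321% elsewhere).

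Others rest on few reads. Eef2kmt at chr16:5244629 had 73.9% and 29.6%, on 46 and 27 reads, and was listed in no other library, and Eif2s3y had 48.3% and 38.7% on 29 and 31 reads. Eif3e at chr15:43251597 had 35.6% and 35.4% on 59 and 48 reads. The exception is the 5′UTR cytosine of Eif3i at chr4:129600601, with 10.8% and 18.4% in the libraries labelled HF, which also reached 23.1% in LF on 13 reads, 12.5% in MF on 16 reads, 21.9% in pLF on 64 reads and 19.4% in pHF on 36 reads.

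**Figure D5:**
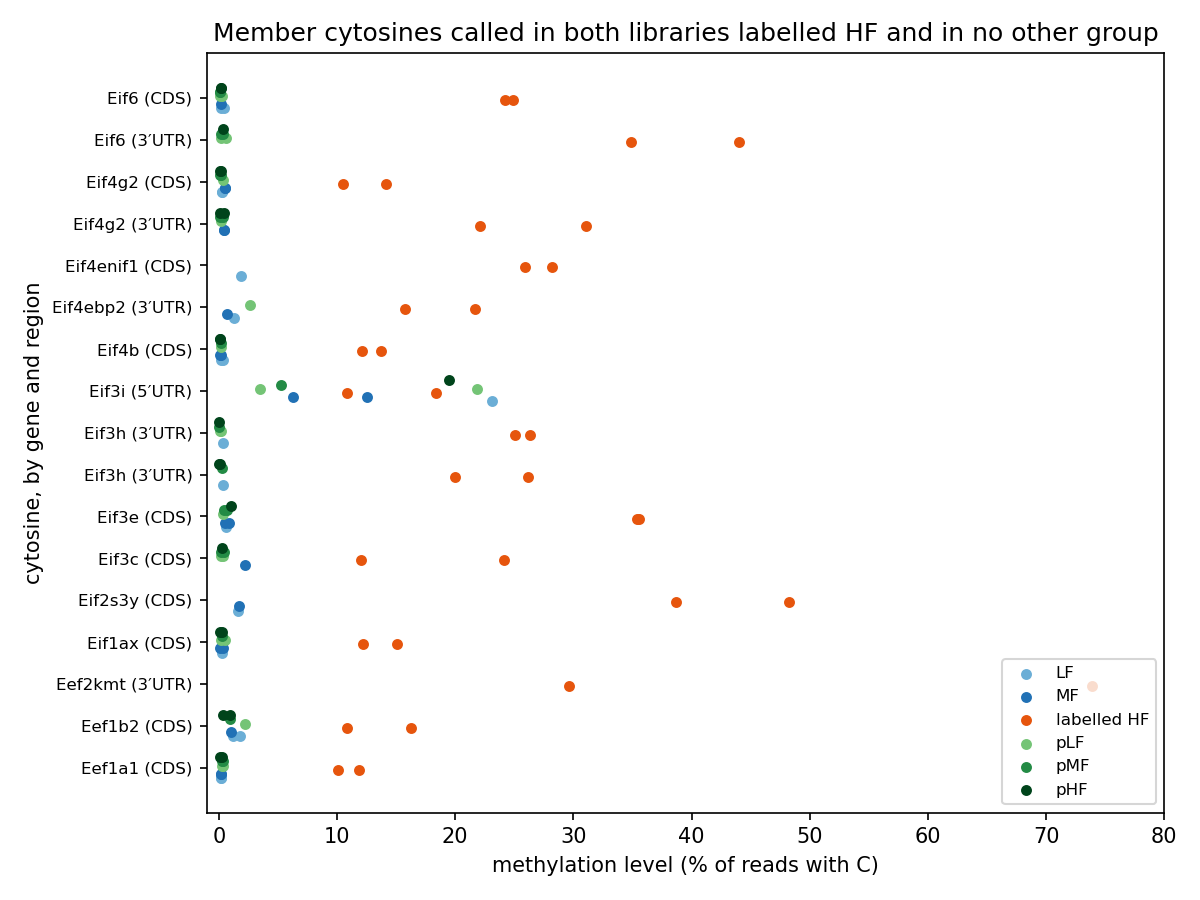
Methylation level (x axis, % of reads with C) of the 17 member cytosines called in both libraries labelled HF and in no other group (y axis, by gene and region), a point per library. Labelled HF points lie at 10% or above, and points of other libraries lie at or below 2.63% at every cytosine other than that of Eif3i.

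Among cytosines called in polysome mRNA was one in the coding sequence of Eif3e at chr15:43265514. Its level was 31.7% (63 reads, Wilson interval 21.6 to 44.0) and 17.5% (166 reads) in pLF, 4.11% and 6.36% in pMF, 17.1% and 0.345% in pHF, and 0.135% to 0.549% in the 6 total libraries. The pooled level in pLF lay 21.2 percentage points above LF and 15.9 above pMF. It entered these comparisons by being called in pLF, where it is high, so the differences are a description. It was the sole member cytosine of 15 to pass between pLF and pMF, where 9.68% of all tested cytosines passed, and with limma on the log odds 0 passed. Coverage in pLF was 63 and 166 reads against 1480 and 1960 in LF, so the level rests on the few Eif3e reads of the polysome libraries.

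Eif4b, of the helicase cofactor, had 57.1% and 28.1% at chr15:102073941 in pLF, on 21 and 32 reads, 44.4% in 1 pMF and 1 pHF replicate on 27 and 36 reads, and 1.06% to 5.88% in the total libraries that listed it. The pooled level in pLF lay 38.3 percentage points above LF, again a description of a cytosine that entered the comparison by being called in pLF.

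In the 3′UTR of Eef1a1, cytosines at 78478512, 78478537 and 78478558 had levels of 6.48% to 29.3% in LF, MF, pLF and pMF on 26 to 389 reads, and the last 2 positions also carry the name Gm26377. The pooled levels of the latter 2 lay below LF in pLF, with differences of -13.7 and -13.2 percentage points; they entered by being called in LF, so this is a description, and with limma on the log odds neither passed. At 78478558 the LF replicates were 29.3% and 16.7%, and 1 pLF replicate lay between them while the other was at 8.38%, so the groups overlapped. At the same cytosine, 1 of 13 members tested, the pooled level in pHF differed from pMF by -7.33 percentage points and passed Fisher's exact test (9.10% of all tested cytosines passed), with 12.5% and 0.244% in the pHF replicates and 10.0% and 10.8% in the pMF replicates. It entered by being called in pMF, and the call rests on pHF replicate 2, the library that stood apart: without it 0 members passed, and 0 passed with the replicate number as a block or with limma on the log odds.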

How the data were processed

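RNA bisulfite sequencing had been done on poly(A) RNA of 12 libraries, 2 for each of 6 groups. The authors trimmed reads with fastp, aligned them to mm10 with meRanGh and kept unique alignments, called cytosines per library with meRanCall at a coverage of at least 10 and a base quality of at least 30, and annotated them with the Ensembl GRCm38 gene set. The deposited lists precede the filter on reads with several unconverted cytosines and hold, per cytosine, a count of reads and of unconverted reads and the methylation level as a fraction, neither normalized. A cytosine without an unconverted read is not listed, so the positions that stand for a gene differ between libraries. Median coverage over tested genes was 244 to 520 per library. Intervals of levels (Wilson, 95%) cover counting error only, and the reads carry no molecular identifiers. Submitters' processing notes name R 4.1.1.

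For each gene the median coverage over cytosines with a level under 0.05 was taken in each library. Genes with such a cytosine in every library and a mean of at least 20 per library were tested on log2 values centred on the library's median gene, with limma 3.58.1 (R 4.3.3; trend, all 12 libraries in 1 fit, Benjamini-Hochberg over 9451 genes, threshold 0.05). Every adjusted p of coverage in the text is from limma. Cytosines called in both replicates of either group, and covered by 20 or more reads in each of the 4 libraries, entered Fisher's exact test (two-sided), with adjustment over all such cytosines of any gene. Pooled reads carry no error between replicates: on simulated data with 400 cytosines and such error, the test made 36 false calls beside 80 true changes. Python 3.11.15, pandas 2.3.3, scipy 1.17.1 and edgeR 4.0.16 were also used. Sequences were read from the GRCm38 genome.

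The members, gene lists and tests were chosen with earlier results of these data known. Members named are, of those past the threshold, the 5 with the largest difference in each direction per comparison. The best known factor of each role, the TOP list and the members beside a threshold are named as well. Cytosines named are the 10 with the highest mean level. Genes and cytosines named beyond these were chosen after their values were seen. Alternatives were other scalings, coverage minimums, readings of a gene, edgeR, the replicate number as a block, and each library left out. Reading genes at cytosines named by 1 gene, or listed in all 4 libraries compared and fitted on those alone, was added after seeing the data.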

Additional observations from a re-analysis of the deposited data

Results flagged for a closer look

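Polysome and total libraries separated in opposite directions in different comparisons for 4 genes and for the Eif4ebp2 repeat. Each time the libraries labelled HF, which did not match their published list, were on 1 side. The difference between LF and labelled HF was not tested. Such separations were not counted over all tested genes, so the 4 genes are not read as a trait of the members. Eef1g had a polysome minus total log2 difference of 0.29 at labelled HF and -0.38 at LF. At the 243 cytosines listed in all 4 libraries, its coverage before centring was 5143 and 11325 in pHF. In the libraries labelled HF it was 7734 and 5927 there, between the pHF replicates. Eef2 had 0.24 at LF and 0.40 at MF, against -0.24 at labelled HF; its change from MF to labelled HF was -0.64 (limma adjusted p = 0.115). At the cytosines listed in all 4 libraries Eef2 had -0.07 at LF, 0.14 at MF and -0.32 at labelled HF, none past the threshold, so the direction at LF turned. Eif4e had 2.53 at labelled HF and -1.64 at LF, with a change from MF to labelled HF of 2.81 (adjusted p = 0.169); at labelled HF it was -0.08 at the cytosines listed in all 4 libraries and -0.43 at those listed in all 12, so no direction is given for it. Eif4g2 had 0.53 at labelled HF, -1.52 at LF and -1.04 at MF, with a change from MF to labelled HF of 1.56 (adjusted p = 0.106). The mean level of the Eif4ebp2 repeat was higher by 21.0 percentage points in pHF than in the libraries labelled HF and differed by -3.17 percentage points between pLF and LF.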

How the results depend on the processing

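Counts of members called moved with the positions read. At cytosines listed in all 12 libraries, where 35 members could be read, 22 passed at LF, 21 at MF, 23 at labelled HF, 26 for labelled HF against MF and 21 for the interaction of labelled HF with MF, beside 753, 772, 840, 824 and 669 of 1176 genes in all. With mean in place of median coverage these were 27, 24, 32, 13 and 13 of 60, beside 3425, 3238, 4213, 2378 and 1316 of 9451. At cytosines listed in all 4 libraries, 24, 32, 31 and 41 passed in the first 4 of these comparisons. edgeR called 9 at LF, and quantile normalization gave 11 at MF and 1 for the interaction with labelled HF. These counts have no share of all genes beside them, so they show only that the calls move. For levels, isolated cytosines alone gave 2 at LF, 0 at MF, 8 at labelled HF and 6 for labelled HF against MF. Over all genes they gave 113 of 150, 104 of 146, 268 of 329 and 280 of 334. With limma on the log odds it was 2 at LF and 0 at MF, beside 218 of 480 and 108 of 403 over all genes. It was 0 for pLF against pMF and for pHF against pMF, with 0 over all genes in each. For the last of these a coverage of at least 50 gave 2, beside 73 of 370 over all genes. Leaving out 1 library gave 2 to 14 members at LF, 0 to 13 at MF, 4 to 15 at labelled HF, 0 to 6 for labelled HF against MF, 0 to 2 for the interaction with labelled HF and 0 for the other comparisons of coverage; for levels it gave 4 to 9 at LF, 0 to 7 at MF, 20 to 28 at labelled HF, 0 to 3 for LF against MF, 18 to 27 for labelled HF against MF, 1 to 2 for pLF against pMF and 0 to 2 for pHF against pMF. Among the calls, at cytosines listed in all 12 libraries, the direction reversed for Eif3b (0.11) and Eif4a3 (-0.18) at LF and Eif4e (-0.43) at labelled HF. It also reversed for Eif4e (-0.076) at those listed in all 4, and for Eif4g2 (0.046) in labelled HF against MF with mean coverage. The cause was not tested. Over 845 recomputed values of the 37 calls of a member in a comparison, 605 kept direction and side of the threshold, 235 kept direction alone and 5 reversed. Members that did not pass are not in this count, and some of them turned direction at the common cytosines, as given above. Replicate numbers did not pair the samples: the correlations of same-numbered deviations over 15 pairs of groups were -0.068 to 0.019. With the replicate number as a block (replicate block), 11 members passed at LF, 6 at MF, 9 at labelled HF, 3 for labelled HF against MF and 0 elsewhere. These counts, and those above with 1 library left out, have no share of all genes beside them. They show only that the calls move. The blocked test of levels gave 0 for pHF against pMF, beside 45 of 703 over all genes. Depth limits the genes with few listed cytosines, such as Eef1e1 in the libraries labelled HF, and the coverage ceiling limits Eef1a1.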
